A study of Mus musculus with 4 samples.

Results

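Genes of the T cell receptor complex and its proximal signalling chain were followed in CD4+ T cells sorted by an EGFP reporter of Il10. The set was a fixed list of 53 gene symbols, and its members were the 52 of these that appeared in the authors' rlog table of 9546 genes. All 52 also passed the filter of at least 10 counts over the 4 libraries and were among the 9608 genes tested. The symbol left out was Tec, a Tec family kinase, which had 0 and 2 counts for Il10-EGFP− against 2 and 1 for Il10-EGFP+ T cells, too few for a fold change. By role, the members were 9 receptor chains and surface partners, 7 genes for kinases and the phosphatase CD45, 11 adaptors and exchange factors, 11 genes of the calcium arm, and 14 genes whose products limit the signal.

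All cells came from spleens of Tg4 Nr4a3-Tocky Il10-EGFP mice. Their T cells bear a transgenic receptor specific for a peptide of myelin basic protein, and the mice report Nr4a3 by a fluorescent Timer protein and Il10 by EGFP. Every mouse received 4 mg/kg of the [4Y]-MBP peptide subcutaneously, and spleens were taken 24 h later, so that no population was left unstimulated. CD4+ T cells positive for the Timer were sorted into Il10-EGFP+ and Il10-EGFP− T cells, with 2 libraries of each from 2 mice per population by the study's description, which does not say whether the same mice gave both populations. Animal age was not given in the sources used here, and a further replicate pair that the study set aside as an outlier was not analysed here.

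The T cell receptor recognises peptide on MHC through its alpha and beta chains and signals through the CD3 and zeta chains. LCK phosphorylates these chains, ZAP-70 binds them and phosphorylates the scaffold LAT, and from there phospholipase C gamma, calcium and NFAT, Ras, and NF-κB are engaged. Diacylglycerol kinases, CBL family ubiquitin ligases and several tyrosine phosphatases restrain the same steps. The question addressed here was whether transcripts of this machinery differed between T cells with and without the Il10 reporter signal after the same peptide.

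The libraries were shallow, at 644679 to 730330 counts with 11755 to 12230 genes detected. Summed T cell markers (7 genes, 5 of them also among the 52) were at 1450 to 1540 CPM (counts divided by library size) in the Il10-EGFP− and 1995 to 1999 in the Il10-EGFP+ libraries, and those of CD8 T or NK cells (6 genes) at 37.0 to 48.1 and 21.7 to 27.1. Markers of B cells summed to 103 to 149 CPM in Il10-EGFP− and 366 to 441 CPM in Il10-EGFP+ libraries, and the 4 of 6 that had enough counts to test lay higher in both Il10-EGFP+ libraries. The immunoglobulin gene Igkc had 6 and 18 against 81 and 116 counts and Ighm 61 and 79 against 143 and 179. Of the genes for the B cell receptor signalling chains, Cd79a had 2 and 0 against 0 and 0 counts and Cd79b 1 and 1 against 4 and 2. Markers of myeloid cells (6 genes, 2 of them higher in both Il10-EGFP+ libraries) summed to 61.6 to 100 and 114 to 287 CPM, and those of red cells (4 genes) to 97.6 to 142 and 153 to 195 CPM. The part of these other cells in the differences below was not tested.

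The constant regions of the receptor chains are shown first because the results turn on Trac, while Trbc1 and Trbc2 are near copies whose reads could be exchanged. All 3 are given 5′ to 3′ on the coding strand from GENCODE M21 transcripts of GRCm38. For the beta chain constant genes, the last 150 bases of the 521 coding bases are printed, and capitals mark the bases at which the copies differ.
Trbc1: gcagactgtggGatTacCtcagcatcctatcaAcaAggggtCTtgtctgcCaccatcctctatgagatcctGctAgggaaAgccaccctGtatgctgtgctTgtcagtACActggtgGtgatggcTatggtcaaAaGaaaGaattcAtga
Trbc2: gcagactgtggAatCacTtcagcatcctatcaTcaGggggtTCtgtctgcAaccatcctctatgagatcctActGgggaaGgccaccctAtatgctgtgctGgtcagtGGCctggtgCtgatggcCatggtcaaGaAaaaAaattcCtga
The coding parts were 95.6% identical, and 22 of their 23 differing bases lay in this stretch, the end nearest to where a 3′ library is read. After the stop codon, over 216 bases in Trbc1 and 171 in Trbc2, the longest run they shared was 8 bases. Of 486 different 50-base sequences in the last 300 bases of Trbc1 transcripts, 73 also occurred in a Trbc2 transcript, though none in the last 300 bases of one. For the alpha chain constant gene, the last 120 of 413 coding bases are printed, with the stop codon in capitals.
Trac: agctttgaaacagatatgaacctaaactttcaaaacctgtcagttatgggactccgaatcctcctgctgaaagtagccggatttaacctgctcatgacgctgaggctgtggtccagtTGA
None of the 502 sequences at the end of Trac occurred in a transcript of another gene. A constant region is the same in transcripts of rearranged chains of any specificity, so these counts were not divided between transgenic and endogenous receptors.

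Of the 52 genes, 2 differed between the populations past the threshold of the test. Trac, the alpha chain constant region, and Dgka, a diacylglycerol kinase that removes the messenger activating RASGRP1 and protein kinase C, rose in Il10-EGFP+ T cells, by log2 fold changes of 0.59 and 0.64. No member fell. By edgeR's quasi-likelihood test at an adjusted p under 0.05, 2 of 52 members were called higher and 0 lower, against 2.35% and 1.74% of all genes tested, so the share of members called was close to the background. At an unadjusted p under 0.05, 12 members were higher and 2 lower (7.96% and 7.49% of all genes). Those 12 were Trac, Cd3e, Cd4, Lck, Txk, Prkcb, Themis, Malt1, Calm2, Dgka, Sla and Ubash3b, and the 2 were Sos1 and Ptpn6. DESeq2's Wald test called 1 member, Trac (0.739% of all genes were called higher by it), with 3 members given no adjusted p, and limma on the deposited rlog values called 3, adding Ubash3b.

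Most of the small differences pointed to Il10-EGFP+ T cells. Log2 fold changes lay above 0 for 33 of 52 members, with a median of 0.14, while the median over all genes tested was 0.00. For 19 members the lower Il10-EGFP+ library still exceeded the higher Il10-EGFP− library (22.3% of all genes), for 5 the reverse held (22.3% of all genes), and for 28 the populations overlapped. Counts of all members together came to 6958 and 6321 for Il10-EGFP− against 6770 and 7087 for Il10-EGFP+ T cells. As a share of each library this was 0.937% ± 0.0229 against 1.03% ± 0.0268 (SD, n = 2 libraries each; exact permutation test, two-sided, p = 0.333, the smallest that 2 against 2 libraries allow). In these bulk samples, a smaller number of cells expressing a gene and less RNA of it per cell cannot be told apart.

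**Figure D1:**
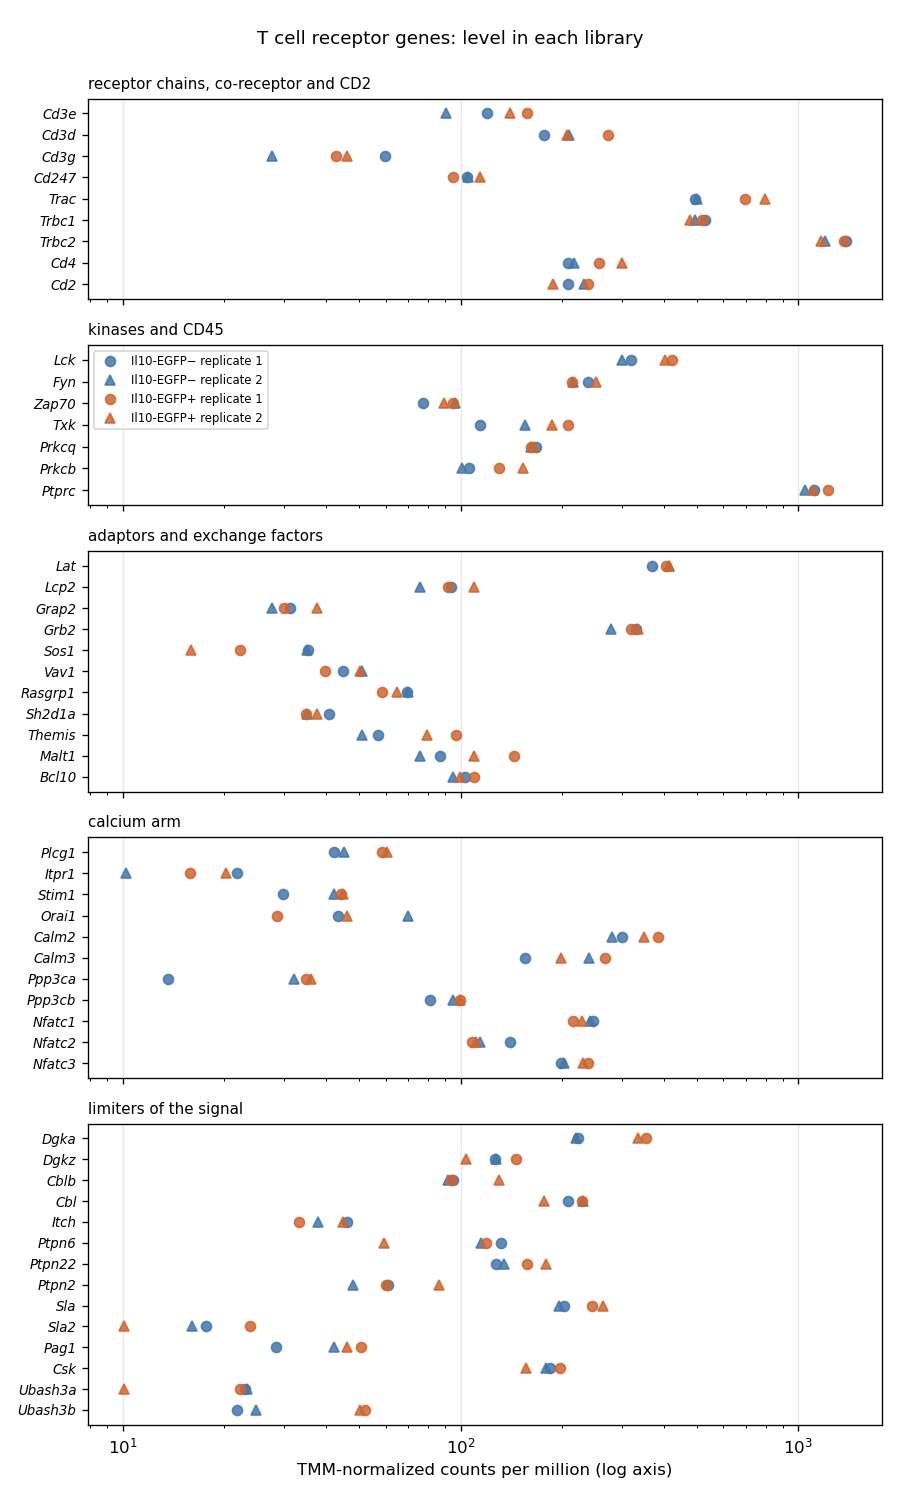
Level of each of the 52 genes in each library, in TMM-normalized CPM on a log axis, grouped by role; circles are replicate 1 and triangles replicate 2, blue for Il10-EGFP− and orange for Il10-EGFP+. Trac, Dgka and Ubash3b show orange points clear of blue ones, whereas Trbc1, Trbc2 and Prkcq overlap.

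Among the receptor chains, Trac was the member that rose. Trac (ENSMUSG00000076928; chromosome 14, 54220521 to 54224206, plus strand) had 363 and 344 counts for Il10-EGFP− against 438 and 553 for Il10-EGFP+ T cells. The populations did not overlap, and replicate 2 was the higher of the Il10-EGFP+ libraries. In TMM-normalized CPM, Trac went from 497 ± 6.50 to 746 ± 73.4 (SD, n = 2 libraries each). Its log2 fold change was 0.59 (standard error 0.14, edgeR adjusted p = 0.0045). Without the Il10-EGFP+ replicate 2 library, its log2 fold change was 0.48 and its adjusted p 0.135 (edgeR), so the call rested on that library, and without any other single library it was called.

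The beta chain genes did not pass the test. Trbc2 (ENSMUSG00000076498; chromosome 6, 41546730 to 41548352), which held the most counts of any member, had 1019 and 823 counts for Il10-EGFP− against 860 and 809 for Il10-EGFP+ T cells. Its level was 1292 ± 129 and 1265 ± 138 CPM (SD, n = 2 each), with a log2 fold change of -0.03 (95% interval -0.28 to 0.22, edgeR adjusted p = 0.95). Trbc1 (chromosome 6, 41538218 to 41539881) had 389 and 339 against 328 and 332 counts and a log2 fold change of -0.04 (95% interval -0.31 to 0.24). For both beta genes the libraries of the populations overlapped in CPM.

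Set against the beta chain genes within a library, Trac separated the populations as it did alone. The ratio of Trac to summed Trbc1 and Trbc2 counts was 0.258 and 0.296 for Il10-EGFP− against 0.369 and 0.485 for Il10-EGFP+ libraries, 1.54 times higher as a ratio of means. The Trbc1 to Trbc2 ratio was 0.382 and 0.412 for Il10-EGFP− against 0.381 and 0.410 for Il10-EGFP+ libraries, so the balance of the near copies was almost the same in every library. These ratios were among 7 formed after the values were seen, and none could reach a p under 0.333 by the exact permutation test with 2 against 2 libraries (0.58 or more after Benjamini-Hochberg adjustment).

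The CD3 genes, which encode the signalling chains, did not pass the test. Cd3g, Cd3d and Cd3e are neighbours on chromosome 9 (44969572 to 44980431, 44981786 to 44987339 and 44998740 to 45009627). Cd3e had 88 and 62 counts for Il10-EGFP− against 99 and 97 for Il10-EGFP+ T cells, with no overlap in CPM and a log2 fold change of 0.49 (95% interval 0.08 to 0.91, edgeR adjusted p = 0.21). For Cd3d the log2 fold change was 0.31 (95% interval -0.04 to 0.66) and for Cd3g 0.01 (95% interval -0.66 to 0.69). Cd3g had 44 and 19 counts for Il10-EGFP−, which enclosed the 27 and 32 of the Il10-EGFP+ libraries. Cd247, the zeta chain, was at 105 ± 0.378 against 105 ± 13.4 CPM (SD, n = 2 each). Exons of Cd247 overlap those of Pou2f1 on the other strand (41 and 12 against 22 and 23 counts), and the strand option of the counting was not given in the sources used here.

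Cd4, the co-receptor that brings LCK to the complex, had 153 and 149 counts for Il10-EGFP− against 162 and 209 for Il10-EGFP+ T cells. In CPM the populations did not overlap, and the log2 fold change was 0.40 (95% interval 0.07 to 0.73, edgeR adjusted p = 0.20). Cd2, an adhesion receptor that aids T cell signalling, had a log2 fold change of -0.05, and its libraries overlapped. Over the 9 genes of this role the median log2 fold change was 0.01.

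**Figure D2:**
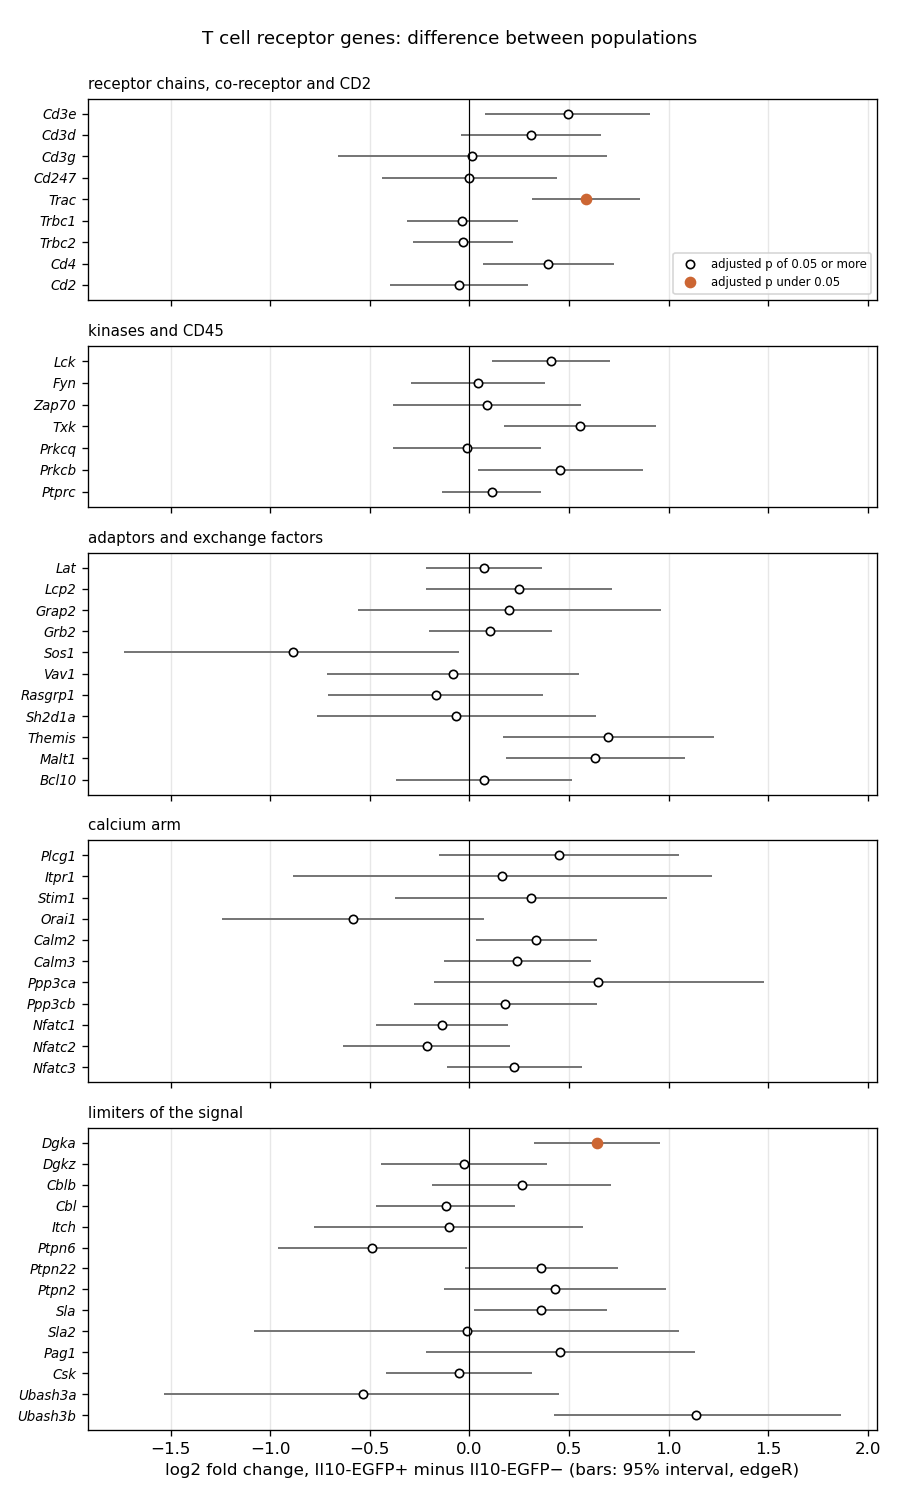
Log2 fold change of each of the 52 genes, Il10-EGFP+ minus Il10-EGFP−, with 95% intervals from edgeR, grouped by role; filled orange points have an adjusted p under 0.05 and open points do not. Trac and Dgka are the filled points at 0.59 and 0.64, Ubash3b lies furthest right at 1.14 and Sos1 furthest left at -0.89.

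None of the 7 kinase and CD45 genes passed the threshold in the main edgeR fit, with DESeq2 or with limma. At an unadjusted p under 0.05 with edgeR, 3 were higher (7.96% of all genes). Log2 fold changes were above 0 for 6 of the 7, with a median of 0.11. Txk, a Tec family kinase of T cells (ENSMUSG00000054892; chromosome 5, 72695978 to 72752777), differed most. It had 84 and 106 counts for Il10-EGFP− against 131 and 129 for Il10-EGFP+ T cells, without overlap. Its level was 134 ± 28.7 and 197 ± 15.2 CPM (SD, n = 2 each), and the log2 fold change was 0.55 (standard error 0.19, edgeR adjusted p = 0.089). Without the Il10-EGFP− replicate 1 library, which was the lowest, its value was 0.34, and leaving out Il10-EGFP− replicate 2 instead gave 0.79 with an adjusted p of 0.045 (edgeR).

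Lck, the kinase that starts the cascade, had 236 and 206 counts for Il10-EGFP− against 267 and 279 for Il10-EGFP+ T cells. Its libraries did not overlap, and the log2 fold change was 0.41 (95% interval 0.11 to 0.71, edgeR adjusted p = 0.11). Fyn, the other Src family kinase of the list, had a log2 fold change of 0.04 (95% interval -0.29 to 0.38), and Zap70, which acts after LCK, one of 0.09 (95% interval -0.38 to 0.56). Of the protein kinase C genes, Prkcq, the isoform that links the receptor to NF-κB, was at 164 ± 3.54 and 163 ± 2.01 CPM (SD, n = 2 each), and Prkcb had a log2 fold change of 0.45 (edgeR adjusted p = 0.26) with no overlap. Ptprc (ENSMUSG00000026395; chromosome 1, 138062861 to 138175708) encodes CD45, which removes the inhibitory phosphate from LCK and held the most counts of this role. It had 818 and 717 against 774 and 765 counts, or 1078 ± 45.4 and 1165 ± 86.8 CPM (SD, n = 2 each), and a log2 fold change of 0.11 (standard error 0.12, edgeR adjusted p = 0.76).

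Among the 11 adaptors and exchange factors, none passed the test with edgeR, DESeq2 or limma. At an unadjusted p under 0.05 with edgeR, 2 were higher and 1 lower (7.96% and 7.49% of all genes). The genes with the largest differences pointed in opposite directions. Themis, an adaptor of T cells that binds GRB2 (ENSMUSG00000049109; chromosome 10, 28668360 to 28883818), had 42 and 35 counts for Il10-EGFP− against 61 and 55 for Il10-EGFP+ T cells, or 54.0 ± 4.20 and 88.0 ± 12.2 CPM (SD, n = 2 each). Its log2 fold change was 0.70 (standard error 0.26, edgeR adjusted p = 0.13). Malt1, the paracaspase that works with BCL10 on the way to NF-κB (ENSMUSG00000032688; chromosome 18), had 64 and 52 against 91 and 76 counts, or 81.4 ± 7.78 and 127 ± 24.4 CPM (SD, n = 2 each), and its log2 fold change was 0.63 (standard error 0.22, edgeR adjusted p = 0.10). For both genes each Il10-EGFP+ library lay above each Il10-EGFP− library. Bcl10 itself had 76 and 65 against 69 and 69 counts and a log2 fold change of 0.07 (95% interval -0.37 to 0.52).

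Sos1, an exchange factor that loads Ras (ENSMUSG00000024241; chromosome 17, 80393751 to 80480453), had 26 and 24 counts for Il10-EGFP− against 14 and 11 for Il10-EGFP+ T cells. Both Il10-EGFP+ libraries were the lower, at 19.0 ± 4.46 against 35.2 ± 0.194 CPM (SD, n = 2 each), and the log2 fold change of -0.89 (standard error 0.42) did not pass the test (edgeR adjusted p = 0.28). Rasgrp1, the exchange factor that answers to diacylglycerol, also lay lower in both Il10-EGFP+ libraries, with 51 and 48 against 37 and 45 counts and a log2 fold change of -0.17 (95% interval -0.71 to 0.37). Lat, the central scaffold (ENSMUSG00000030742; chromosome 7, 126363824 to 126369570) and the member of this role with the most counts, had 272 and 283 against 256 and 288 counts. It was at 391 ± 30.9 and 411 ± 6.97 CPM (SD, n = 2 each), a log2 fold change of 0.07 (standard error 0.14, edgeR adjusted p = 0.90). The partners of LAT, Lcp2 (which encodes SLP-76), Grap2 and Grb2, had log2 fold changes of 0.25, 0.20 and 0.10, and Vav1 and Sh2d1a had -0.08 and -0.07, all with overlapping libraries.

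In the calcium arm, none of the 11 genes passed the test with edgeR, DESeq2 or limma, and 1 was higher at an unadjusted p under 0.05 with edgeR (7.96% of all genes). Both Il10-EGFP+ libraries were above both others for 6 of the 11 and below them for 2 (22.3% of all genes each way), and the median log2 fold change was 0.22. Calm2, a calmodulin gene with the most counts of this role (ENSMUSG00000036438; chromosome 17, 87433412 to 87446935), had 222 and 192 counts for Il10-EGFP− against 243 and 242 for Il10-EGFP+ T cells. It was at 291 ± 15.0 and 367 ± 25.4 CPM (SD, n = 2 each), with no overlap and a log2 fold change of 0.33 (standard error 0.15, edgeR adjusted p = 0.26). Calm3, another gene for calmodulin, had 114 and 164 against 169 and 137 counts, and its libraries overlapped. Ppp3ca, a catalytic subunit of the phosphatase calcineurin (ENSMUSG00000028161; chromosome 3, 136670124 to 136937727), had 10 and 22 counts against 22 and 25, or 22.8 ± 13.1 and 35.5 ± 0.854 CPM (SD, n = 2 each). Its log2 fold change of 0.65 (standard error 0.41, edgeR adjusted p = 0.49) ran from 0.14 without Il10-EGFP− replicate 1, the library with 10 counts, to 1.37 without Il10-EGFP− replicate 2. The other catalytic subunit measured, Ppp3cb, had a log2 fold change of 0.18 (95% interval -0.28 to 0.64).

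The NFAT genes, whose products calcineurin sends to the nucleus, were split. Nfatc1 had 182 and 166 counts for Il10-EGFP− against 136 and 159 for Il10-EGFP+ T cells, and Nfatc2 had 103 and 78 against 68 and 77. Nfatc3 had 146 and 139 against 150 and 160 counts. In CPM, both Il10-EGFP+ libraries were lower for Nfatc1 and Nfatc2 and higher for Nfatc3, with log2 fold changes of -0.14, -0.21 and 0.22, whose 95% intervals each included 0. Upstream of them, Plcg1, the phospholipase that makes the second messengers, had a log2 fold change of 0.45 (edgeR adjusted p = 0.52) with no overlap. The calcium sensor Stim1 had a log2 fold change of 0.31 and the channel subunit Orai1 one of -0.58 (edgeR adjusted p = 0.41). Orai1 had 32 and 48 against 18 and 32 counts, and its libraries overlapped in CPM. Itpr1, the calcium channel opened by inositol trisphosphate, was near the lowest counts of the list, at 16 and 7 against 10 and 14.

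Of the 14 genes that limit the signal, Dgka rose and the other 13 did not pass the test. Dgka (ENSMUSG00000025357; chromosome 10, 128720134 to 128744855, minus strand) had 164 and 151 counts for Il10-EGFP− against 224 and 233 for Il10-EGFP+ T cells. The libraries of each population were close together and did not overlap with the other, at 221 ± 1.62 and 346 ± 13.3 CPM (SD, n = 2 each). The log2 fold change was 0.64 (standard error 0.16, edgeR adjusted p = 0.0090). Its log2 fold change stayed between 0.60 and 0.68 with any library left out, but the edgeR adjusted p was 0.057 or 0.052 when replicate 1 or 2 of Il10-EGFP− was left out and 0.070 when Il10-EGFP+ replicate 1 was, and DESeq2 gave 0.093. Exons of Dgka overlap those of Pmel on the other strand, which had 1 count in Il10-EGFP+ replicate 1 and 0 in the other libraries.

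Dgkz, the other diacylglycerol kinase gene of the list, had 93 and 87 counts for Il10-EGFP− against 92 and 72 for Il10-EGFP+ T cells. The log2 fold change of Dgkz was -0.03 (95% interval -0.44 to 0.39), and its libraries overlapped. The ratio of Dgka to Dgkz counts was 1.76 and 1.74 for Il10-EGFP− against 2.43 and 3.24 for Il10-EGFP+ libraries, so both Il10-EGFP+ libraries were the higher (exact permutation test, two-sided, p = 0.333, the smallest possible).

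The genes of the UBASH3 phosphatases, which act on ZAP-70 and related kinases, had the largest and the lowest log2 fold change of this role. Ubash3b (ENSMUSG00000032020; chromosome 9, 41011098 to 41161697), which encodes STS-1, had 16 and 17 counts for Il10-EGFP− against 33 and 35 for Il10-EGFP+ T cells. Its level was 23.3 ± 2.18 and 51.4 ± 1.27 CPM (SD, n = 2 each), without overlap. Its log2 fold change of 1.14 (standard error 0.36, edgeR adjusted p = 0.056) was the largest of all 52 genes and just missed the threshold. The methods differed on this gene, as DESeq2 gave an adjusted p of 0.47 and limma on the rlog values 0.047. Ubash3a (ENSMUSG00000042345; chromosome 17, 31207873 to 31246892), which encodes STS-2, had 17 and 16 against 14 and 7 counts, or 23.2 ± 0.191 and 16.1 ± 8.55 CPM (SD, n = 2 each), with both Il10-EGFP+ libraries the lower. Its log2 fold change was -0.54 (standard error 0.49, edgeR adjusted p = 0.68), and -0.07 without Il10-EGFP+ replicate 2, the library with 7 counts. The ratio of Ubash3b to Ubash3a counts was 0.941 and 1.06 for Il10-EGFP− against 2.36 and 5.00 for Il10-EGFP+ libraries, again the higher in both (exact permutation test, two-sided, p = 0.333).

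**Figure D3:**
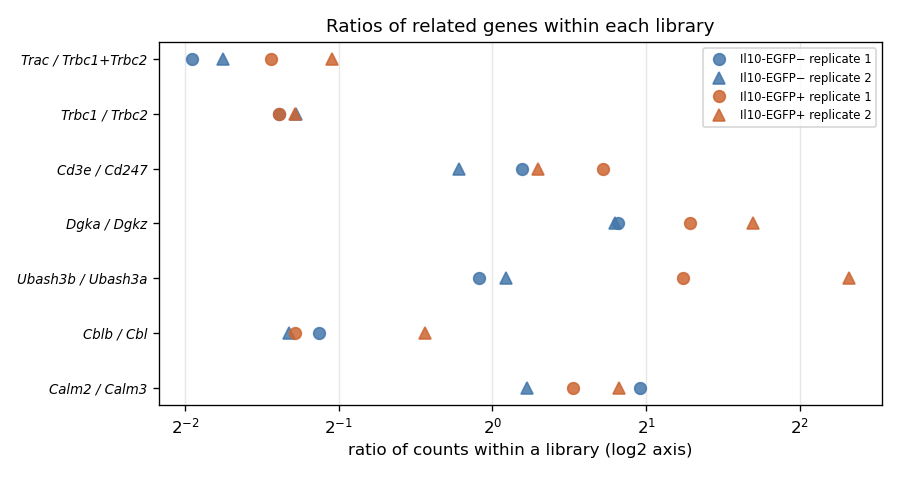
Ratio of counts of related genes within each library on a log2 axis; circles are replicate 1 and triangles replicate 2, blue for Il10-EGFP− and orange for Il10-EGFP+. The orange points lie right of the blue ones for Trac over summed Trbc1 and Trbc2, Cd3e over Cd247, Dgka over Dgkz and Ubash3b over Ubash3a, and nearly cover them for Trbc1 over Trbc2.

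The ubiquitin ligases, phosphatases and inhibitory adaptors showed smaller differences. Cblb, the ligase known for restraining T cells without costimulation, had a log2 fold change of 0.26, Cbl -0.12 and Itch -0.10, and their libraries overlapped. Ptpn6, which encodes the phosphatase SHP-1, had 97 and 79 counts for Il10-EGFP− against 75 and 41 for Il10-EGFP+ T cells, with a log2 fold change of -0.49 (edgeR adjusted p = 0.30). Its Il10-EGFP+ libraries differed from each other, with replicate 2 alone below both Il10-EGFP− libraries, and Ptpn6 was called lower when Il10-EGFP+ replicate 1 was left out. Ptpn22, a phosphatase that acts on LCK and ZAP-70, had a log2 fold change of 0.36 with no overlap, and Ptpn2 one of 0.43 with overlap. The adaptor gene Sla, whose product helps to lower receptor levels, had 149 and 134 against 155 and 183 counts and a log2 fold change of 0.36 (95% interval 0.02 to 0.69, edgeR adjusted p = 0.27). Its relative Sla2 had 13 and 11 against 15 and 7 counts, and its exons overlap those of the better covered Rab5if on the other strand. Csk, the kinase that places the inhibitory phosphate on LCK, and Pag1, its membrane anchor, had log2 fold changes of -0.05 and 0.45.

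**Figure D4:**
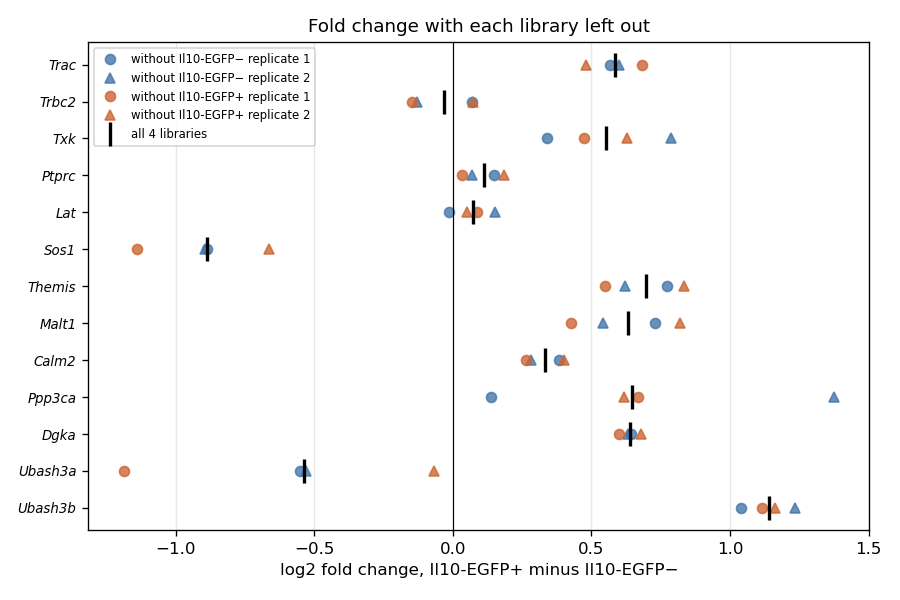
Log2 fold change of the 13 members described in full, Il10-EGFP+ minus Il10-EGFP−, with all 4 libraries (bars) and with each library left out (points; blue for Il10-EGFP− and orange for Il10-EGFP+ libraries, circles for replicate 1 and triangles for replicate 2). Dgka stays between 0.60 and 0.68 and Trac between 0.48 and 0.68, while Ppp3ca spreads from 0.14 to 1.37.

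The wider pathway was represented by 95 other genes, such as further kinases, GTPases and calcium pumps. Of these, 91 could be tested, 5 rose in Il10-EGFP+ T cells and 0 fell (2.35% and 1.74% of all genes), with 15 higher and 3 lower at an unadjusted p under 0.05 (7.96% and 7.49% of all genes), and their median log2 fold change was 0.14. Atp2b4, a pump that moves calcium out of the cell, had 32 and 24 counts for Il10-EGFP− against 79 and 82 for Il10-EGFP+ T cells. It went from 39.2 ± 5.95 to 122 ± 4.86 CPM (SD, n = 2 each), a log2 fold change of 1.62 (standard error 0.26, edgeR adjusted p = 2.5e-05), and was called with every library left out in turn. DESeq2 called this gene alone among the 91, of which 27 were given no adjusted p.

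The other 4 were 2 adaptors that act together on integrins and 2 genes whose products limit the signal. Skap1 had 34 and 31 against 62 and 65 counts, a log2 fold change of 1.07 (standard error 0.27, edgeR adjusted p = 0.0099). Its partner Fyb had 58 and 45 against 68 and 116 counts, a log2 fold change of 0.93 (standard error 0.23, edgeR adjusted p = 0.0097), with Il10-EGFP+ replicate 2 well above replicate 1. For both genes the populations did not overlap. Dok2, an adaptor that restrains Ras, had 28 and 26 against 52 and 53 counts and a log2 fold change of 1.06 (standard error 0.29, edgeR adjusted p = 0.022). Ptpn7, a phosphatase of MAP kinases, had 89 and 69 against 110 and 143 counts and a log2 fold change of 0.78 (standard error 0.20, edgeR adjusted p = 0.010). These 4 calls were less firm, as Skap1 was called without Il10-EGFP+ replicate 2 but not without any other single library, Fyb and Ptpn7 without Il10-EGFP− replicate 1 or Il10-EGFP+ replicate 1 but not without the others, and Dok2 in none of these fits.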

How the data were processed

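The authors prepared 3′ mRNA libraries (QuantSeq FWD) from 5 ng of RNA with 22 PCR cycles, and the deposited counts are reads per Ensembl gene, aligned with STAR 2.5.2a to GRCm38 and counted with HTSeq 0.6.0, without normalization. Molecular identifiers were used in the protocol, and whether the counts were collapsed by them, the annotation release and the strand option are not given in the sources used here. The RNA kit is named as Arcturus Picopure in the study's methods and as PureLink RNA Micro in the labels. The authors also deposited rlog values on a log2 scale, made from the counts with DESeq2. Recomputed from the counts with population in the design, they differed by at most 1.24e-14 over the members.

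The main test was the quasi-likelihood F test of edgeR 4.0.16 (R 4.3.3, TMM factors, default settings), run on every gene whose counts summed to at least 10. Adjusted p-values (Benjamini-Hochberg) cover all 9608 such genes, and the threshold was 0.05. Values in CPM are TMM-scaled, except the marker sums, which are scaled by library size alone, and each standard error is the log2 fold change divided by the root of F. Alternatives were DESeq2 1.42.0, limma 3.58.1 on the rlog values, other scalings and filters, a replicate block, and fits that omit 1 library. The fits were tested on simulated data. Symbols were lacking for 419 of 47643 identifiers.

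Members and lists were chosen with earlier results of these data known. Described in full are members past the threshold, members whose populations did not overlap in CPM with an absolute log2 fold change of at least 0.5, and the member with the most counts in each role. All others are given by log2 fold change or counts, and those given with more detail were chosen after their values were seen. Of the other pathway genes, those past the threshold are named. Depth limits precision, and p-values rest on 2 libraries per population, with the spread of each gene estimated in part from the other genes tested. Because 3′ reads do not scale with transcript length, counts were not divided by length.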

Additional observations from a re-analysis of the deposited data

How the results depend on the processing

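The number of members called higher was 2 with DESeq2 size factors, with library size only, without a low-count filter and with bias-adjusted deviances. In these fits 367 to 396 of all genes were called in either direction, against 393 in the main fit. The number of members called higher was 4 with at least 10 counts in every library (Trac, Dgka, Txk and Ubash3b, with 3 members not tested). Under that filter 428 of 5737 genes were called in either direction. The number was 3 with limma on the rlog values (407 of 9546 genes called) and 1 with DESeq2's Wald test (112 of 9608 genes called). It was 0 when bias-adjusted deviances were combined with no low-count filter, a setting added with earlier results known, under which 8 of all genes were called. With each library left out in turn, it ran from 1 to 2, and the number called lower from 0 to 1. Of the other pathway genes, 5 were called higher, 7 with at least 10 counts in every library, 1 with DESeq2, 0 under that combined setting, and 1 to 3 with each library left out. A fit with a replicate block called 5 members higher (Trac, Dgka, Lck, Txk and Ubash3b) and 7 of the other genes. It called 560 of all 9608 genes in either direction, against 393 in the main fit. The edgeR adjusted p with the block was 4.6e-05 for Trac, 0.00069 for Dgka, 0.037 for Txk and 0.040 for Ubash3b. The study speaks of a replicate pair, but the labels tie no number to a mouse, and the deviations of same-numbered libraries from their population means correlated at 0.0177 over 6781 genes. Of 168 log2 fold changes of the 13 members described in full, over 13 alternatives, 165 kept their direction. Those that changed sign were near 0: with each library left out, Trbc2 ran from -0.148 to 0.0748 (above 0 without Il10-EGFP− replicate 1 or Il10-EGFP+ replicate 2) and Lat from -0.0126 to 0.154 (below 0 without Il10-EGFP− replicate 1). Outside the leave-one-out fits and the replicate block, the adjusted p ran from 0.00079 to 0.19 for Trac and from 0.0023 to 0.19 for Dgka. At this depth, Sos1, Ppp3ca, Itpr1, Sla2 and Ubash3a had as few as 7 to 11 counts in a library, and their fold changes are the least precise.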
